A study of Mus musculus with 14 samples.

Results

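Voltage-gated calcium channel subunits were examined in striatum of R6/2 mice, a transgenic model of Huntington disease, and of wild-type mice. The list held 10 genes, and 9 of them had at least 1 probe set with that single gene symbol on the array, 13 probe sets out of 22626 tested. Cacnb3 was not analysed here because no probe set had it as its single gene symbol. Probe sets with several symbols were not assigned to any gene. The genes were Cacna1a, Cacna1b, Cacna1c, Cacna1d and Cacna1e for the pore, Cacna2d1 and Cacna2d3 for the alpha2delta subunit, and Cacnb2 and Cacnb4 for the beta subunit.

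R6/2 mice express exon 1 of the human huntingtin gene with an expanded CAG repeat, driven by the human gene's own promoter, on a CBA by C57BL/6 background. All mice were 6 weeks old and had received normal saline 30 to 60 minutes before they were killed, R6/2 and wild-type alike, as the controls of drug studies. There were 7 R6/2 and 7 wild-type arrays of total RNA, which fell into 2 cohorts by the start of their titles. The M.C cohort held 4 R6/2 arrays (replicates 1 to 4) and 4 wild-type arrays (replicates 1 to 4). The Mith cohort held 3 R6/2 arrays (replicates 5 to 7) and 3 wild-type arrays (replicates 5 to 7). These numbers were given here in order of deposit, only name arrays, and pair none of them across genotypes. Nothing in the labels says that each array is a separate mouse, and p-values cover the spread among these arrays alone, which may be technical. With so few arrays the precision of each value is limited. The genotype labels were not checked against the transgene here.

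A voltage-gated calcium channel is built around a large alpha1 subunit, which forms the pore and senses voltage. Beta subunits sit on the inner face of the channel, bring alpha1 to the membrane and set its gating. Alpha2delta subunits lie on the outer face and raise the amount of channel at the surface and at release sites. In striatal projection neurons L-type channels link dendritic activity to transcription, while P/Q-, N- and R-type channels serve transmitter release and firing.

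Among these subunits the accessory genes Cacna2d3 and Cacnb2 fell in R6/2 striatum, and no pore-forming gene passed the test in either direction. Cacna2d3 was at 64.9% of the wild-type signal and Cacnb2 at 77.6%. Of the 13 probe sets 2 were called lower, 0 were called higher and 11 did not pass, where a call is an adjusted p under 0.05 over all probe sets. Over all probe sets 2.55% were called, 2.19% lower and 0.362% higher. An unadjusted p under 0.05 was met by 3 of the 13, those of Cacna2d3, Cacnb2 and Cacnb4, and by 15.2% of all probe sets. The median change of the 13 was -0.07 on the log2 scale, against 0.01 for all probe sets. With the Actb difference, a sign of RNA quality, as a covariate, the median of the 13 was 0.05 and that of all probe sets -0.003. Then 0 of the 13 were called in limma, and 56 of all 22626 probe sets, against 578 without that covariate. Leaving out 1 array also ended the call of Cacnb2 in 11 of 14 fits, where the count was 1. In those fits 280 to 528 of all probe sets were called. All changes are log2 differences, R6/2 minus wild-type, with ± giving the SE unless SD is named. Signals are log2 values of single probe sets and do not rank genes by abundance.

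Facts of the whole data set touch these results. Signals of Penk and Ppp1r1b, which mark striatal projection neurons, averaged 11.4 and 10.3 over all arrays, above every listed gene of other organs. R6/2 replicate 4 stood apart, with a mean Spearman correlation of 0.981 to the rest of its cohort, lower than for any other array. As a sign of RNA quality, the signal of the 3′ Actb probe set less that of the 5′ Actb probe set was 0.608 ± 0.181 in R6/2 and 0.373 ± 0.143 in wild-type (SD, n = 7 each, exact two-sided permutation p = 0.0210, adjusted 0.0321 over 2 measures). Mean signals of 13 measured genes of other organs, such as liver and muscle, ran from 3.49 to 8.06. Above that range lay 3 of the 13 calcium channel probe sets, those of Cacna2d3 and Cacna1b and Cacnb4 1436912_at. The other Cacnb4 probe set, 1452089_at, had a mean of 7.25, within that range.

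Cacna2d3 encodes the alpha2delta-3 subunit, which is mainly neuronal and is required for normal heat nociception in flies and mice. Its probe set 1419225_at read 9.16, 9.27, 9.49 and 9.20 in the R6/2 arrays of M.C, against 10.13, 9.89, 10.21 and 10.33 in the wild-type arrays of M.C. It read 9.49, 9.54 and 9.40 in the R6/2 arrays of Mith, against 9.53, 10.01 and 9.82 in the wild-type arrays of Mith. In M.C every R6/2 array lay below every wild-type array. In Mith wild-type replicate 5 lay among the R6/2 arrays, and it alone made the genotypes overlap over all 14 arrays. No member was free of overlap there, where 0.389% of all probe sets were lower and 0.0972% higher without overlap. Mean signals were 9.37 ± 0.16 in R6/2 and 9.99 ± 0.27 in wild-type (SD, n = 7 each).

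The fall of Cacna2d3 was -0.62 ± 0.10 over both cohorts (adjusted p = 0.00437), with a 95% interval of 55.7% to 75.6% of wild-type. In M.C it was -0.86 ± 0.11 (adjusted p = 5.76e-04), while the Mith change was -0.31 ± 0.13 (adjusted p = 0.431). The change in M.C minus that in Mith was -0.55 ± 0.17, with an unadjusted p of 0.00425 and an adjusted p of 0.352 from limma, so a difference between the cohorts did not pass. Without wild-type replicate 5 the Mith change was -0.44 ± 0.12 (adjusted p = 0.114). The call over both cohorts held in all 14 fits with 1 array left out, with changes from -0.70 to -0.57. With the Actb difference as a covariate the change over both cohorts was -0.60 ± 0.14 and no longer called (adjusted p = 0.0840), while in M.C it was -0.85 ± 0.13 and called (adjusted p = 0.00544).

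Most markers of striatal projection neurons were also lower in R6/2. Of 12 listed genes 10 were measured, 6 were called lower, 0 higher and 4 did not pass, with a median change of -0.59. Tac1, the gene of substance P, was at 0.07 (adjusted p = 0.787). Their mean centred signal ran from -0.50 to -0.09 in R6/2 arrays and from -0.24 to 0.51 in wild-type arrays. The lowest wild-type array was replicate 5, which was also the lowest wild-type array for Cacna2d3. Of 8 pan-neuronal genes 1 was called lower and 0 higher, with a median of -0.26. Of 7 measured oligodendrocyte genes 5 were called lower and 0 higher (median -0.35), and of 5 measured interneuron genes 3 were called lower and 0 higher (median -0.31). Of 6 microglial genes 0 were called in limma and 2 had an unadjusted p under 0.05 (median -0.10), and of 5 thalamic genes 0 were called and 2 had an unadjusted p under 0.05 (median -0.32). Of 3 measured cortical glutamatergic genes, with mean signals from 3.65 to 8.37, 0 were called (median 0.09). Over all 12393 genes 2.07% were called lower and 0.468% higher, with a median change of 0.01. The part of these lists in the fall of Cacna2d3 was not tested. In whole tissue, fewer cells of a type and less RNA per cell cannot be told apart.

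**Figure D1:**
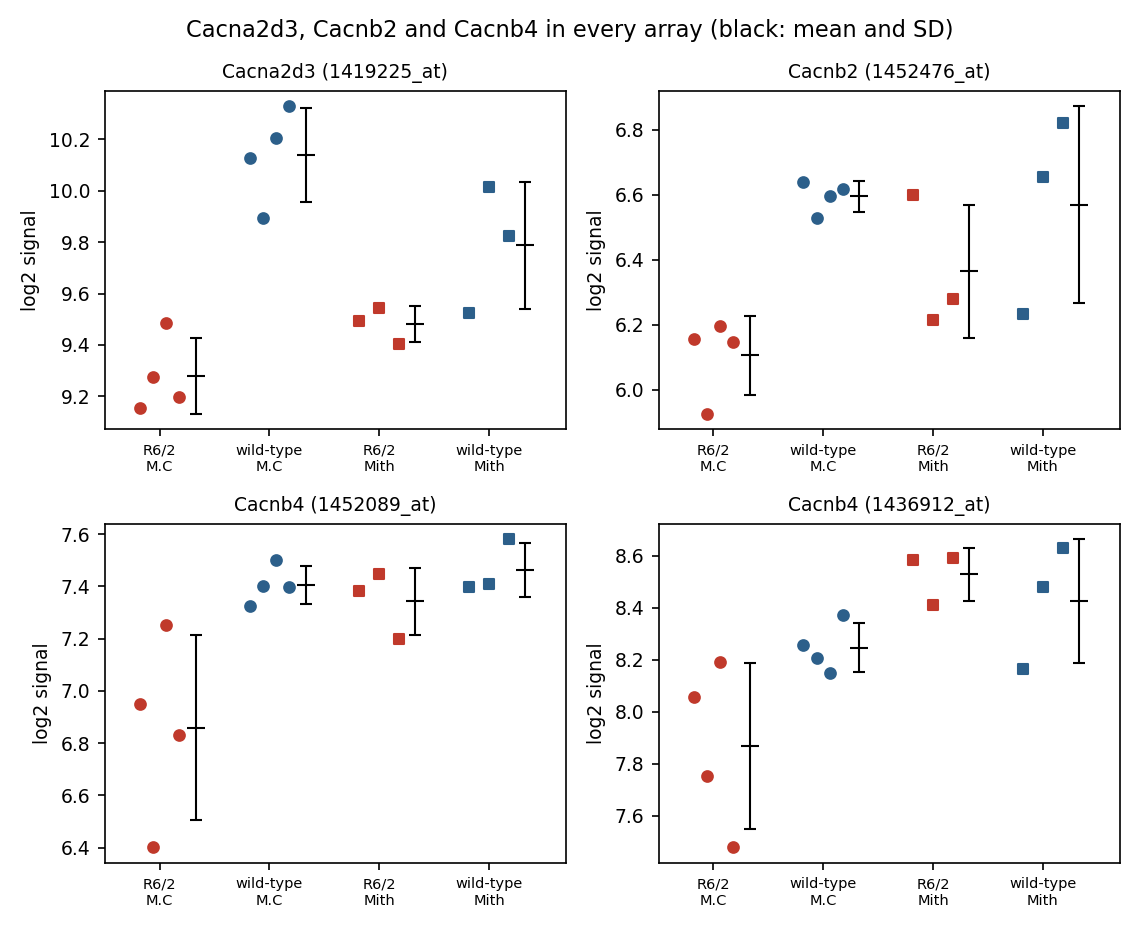
Log2 signal (vertical axis) of 4 probe sets in every array, grouped by genotype and cohort along the horizontal axis; each point is 1 array, and black marks give the mean and SD. In M.C all R6/2 points of Cacna2d3, Cacnb2 and Cacnb4 probe set 1452089_at lie below all wild-type points, while in Mith the genotypes overlap in all 4 panels.

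The genes whose signal followed Cacna2d3 most closely were Tbc1d8, Rgs4 and Arpp21. Over the 14 arrays, after subtraction of each cohort's mean, their Pearson correlations with Cacna2d3 were 0.977, 0.976 and 0.968. These values describe arrays that share genotype, cohort and RNA quality, and carry no test. Rgs4, a regulator of G protein signalling, was itself at -0.83 ± 0.10, and Arpp21, a phosphoprotein of striatal neurons regulated by cyclic AMP, at -0.84 ± 0.13.

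The other alpha2delta gene measured, Cacna2d1, encodes the alpha2delta-1 subunit, a binding site of gabapentin. Its brighter probe set, 1449999_a_at, read 7.12 to 7.86 in R6/2 (median 7.58) and 7.39 to 7.74 in wild-type (median 7.59). The R6/2 arrays surrounded the wild-type range. The change was -0.04 ± 0.10 (adjusted p = 0.899), with an interval of 84.0% to 113% of wild-type. Its other probe set, 1425861_x_at, was dim, with a mean of 4.63, is marked by its name as open to cross-hybridisation, and was at 0.01 ± 0.07. With the Actb covariate the probe sets were at 0.18 and 0.19, neither of them called.

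Cacnb2, a beta subunit of brain and heart, read 6.16, 5.93, 6.19 and 6.15 in the R6/2 arrays of M.C, against 6.64, 6.53, 6.59 and 6.62 in the wild-type arrays of M.C. In Mith it read 6.60, 6.22 and 6.28 in R6/2, against 6.23, 6.65 and 6.82 in wild-type. Again M.C showed no overlap, and in Mith R6/2 replicate 5 was high for its genotype while wild-type replicate 5 was low for its own. Mean signals were 6.22 ± 0.20 in R6/2 and 6.58 ± 0.18 in wild-type (SD, n = 7 each), within the range of the genes of other organs.

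Over both cohorts Cacnb2 fell by 0.37 ± 0.09 (adjusted p = 0.0383), with an interval of 68.0% to 88.4% of wild-type. The change was -0.49 ± 0.11 in M.C (adjusted p = 0.0250) and -0.20 ± 0.13 in Mith (adjusted p = 0.662). This call rested on the full set of arrays. Leaving out 1 array ended it in 11 of 14 fits, and it held only without R6/2 replicate 4, R6/2 replicate 5 or wild-type replicate 5, where the adjusted p was 0.0425, 0.0123 and 0.00191. Across those 14 fits the change stayed between -0.45 and -0.32. It was also lost without a cohort term (adjusted p = 0.126) and with the Actb covariate, where the change was -0.21 ± 0.10 (adjusted p = 0.446). The M.C call of Cacnb2 was lost without R6/2 replicate 1 or 2, or wild-type replicate 1, 3 or 4, and with the Actb covariate (adjusted p = 0.181).

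Astrocyte genes were also lower on average in R6/2. All 6 listed were measured, 0 were called in limma, 4 had an unadjusted p under 0.05, and their median change was -0.29. Their mean centred signal ran from -0.32 to 0.18 in R6/2 arrays and from 0.03 to 0.38 in wild-type arrays. The gene closest to Cacnb2 over the 14 arrays was Gja1, the astrocyte gap junction protein connexin 43, with a Pearson correlation of 0.951, followed by Trim37 at 0.941 and Akt2, a protein kinase of insulin signalling, at 0.940. Gja1 was at -0.48 ± 0.13 (adjusted p = 0.0669). The mean centred signal of pan-neuronal genes ran from -0.36 to 0.21 in R6/2 arrays and from 0.03 to 0.40 in wild-type arrays. An unadjusted limma p under 0.05 was met by 5 of 8 pan-neuronal and 9 of 10 measured projection neuron genes. Lower marker signal was thus not particular to astrocytes. The part of astrocyte RNA, or of any other list, in the fall of Cacnb2 was not tested.

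**Figure D2:**
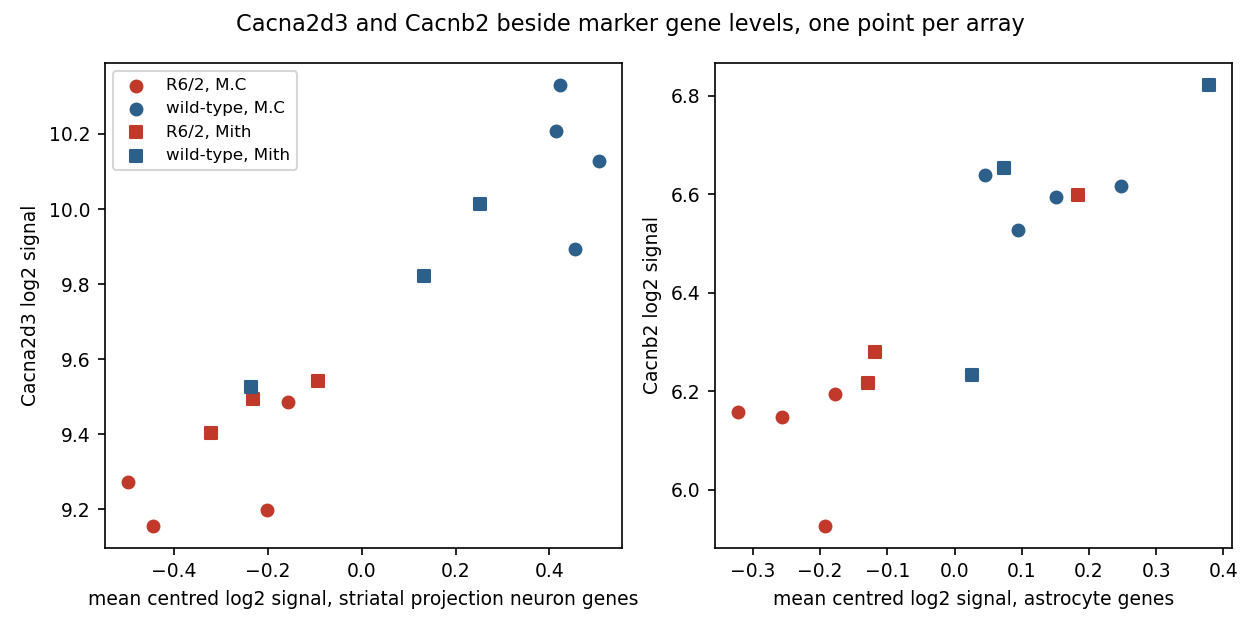
Log2 signal of Cacna2d3 against the mean centred log2 signal of 10 striatal projection neuron genes (left), and of Cacnb2 against that of 6 astrocyte genes (right), 1 point per array. Wild-type replicate 5, the wild-type Mith square at -0.24 on the left panel, lies among the R6/2 arrays for Cacna2d3. Each gene is paired with 1 list for display, and the other lists are not plotted.

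Cacnb4 encodes the beta subunit that is mutated in the epileptic lethargic mouse. Probe set 1452089_at read 6.95, 6.40, 7.25 and 6.83 in the R6/2 arrays of M.C, against 7.33, 7.40, 7.50 and 7.40 in the wild-type arrays of M.C. In Mith it read 7.38, 7.45 and 7.20 in R6/2, against 7.40, 7.41 and 7.58 in wild-type. The R6/2 arrays of M.C lay below all wild-type arrays and were the most scattered of the groups, with an SD of 0.35 against 0.07 in wild-type. Over both cohorts the change was -0.36 ± 0.11 and did not pass (adjusted p = 0.0847), while in M.C it was -0.55 ± 0.13 and was called (adjusted p = 0.0274).

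The other Cacnb4 probe set, 1436912_at, read 8.06, 7.75, 8.19 and 7.48 in R6/2, against 8.26, 8.21, 8.15 and 8.37 in wild-type in M.C. In Mith it read 8.58, 8.41 and 8.59 in R6/2, against 8.16, 8.48 and 8.63 in wild-type. The genotypes overlapped in both cohorts. The change was -0.17 ± 0.11 over both cohorts (adjusted p = 0.517), -0.38 ± 0.13 in M.C (adjusted p = 0.144) and 0.10 ± 0.15 in Mith (adjusted p = 0.905). So both probe sets were below wild-type in M.C, 1 of them called, and they parted in sign in Mith. Leaving out 1 array ended the M.C call of 1452089_at in 5 of 14 fits, those without R6/2 replicate 1 or any of wild-type replicates 1 to 4, where its change ran from -0.58 to -0.52. It was also lost with the M.C arrays fitted alone (adjusted p = 0.0734) and with the Actb covariate (-0.38 ± 0.14, adjusted p = 0.187).

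Within M.C 3 of the 13 probe sets were called lower, those of Cacna2d3, Cacnb2 and Cacnb4, and 0 higher, where 3.21% of all probe sets were called, 2.94% lower and 0.27% higher. An unadjusted p under 0.05 was met in M.C by 4 of the 13, the 3 called and Cacnb4 1436912_at, and by 16.7% of all probe sets. The 3 called were also the ones whose R6/2 arrays all lay below the wild-type arrays there, which 6.33% of all probe sets did. The count of calls fell to 1, Cacna2d3, without R6/2 replicate 1 or without wild-type replicate 1, 3 or 4, and to 2 without R6/2 replicate 2 or wild-type replicate 2. In those fits 368 to 657 of all probe sets were called in M.C, against 727 with all arrays. Within Mith 0 of 13 were called and 1, Cacna2d3, had an unadjusted p under 0.05, against 0.0221% (0.0177% lower and 0.00442% higher) and 9.8% of all probe sets. The difference between the cohorts passed for 0 of 13 in limma, and 3 had an unadjusted p under 0.05, against 0 called and 9.78% of all probe sets. Those 3 were Cacna2d3 and both Cacnb4 probe sets, each with the lower change in M.C.

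**Figure D3:**
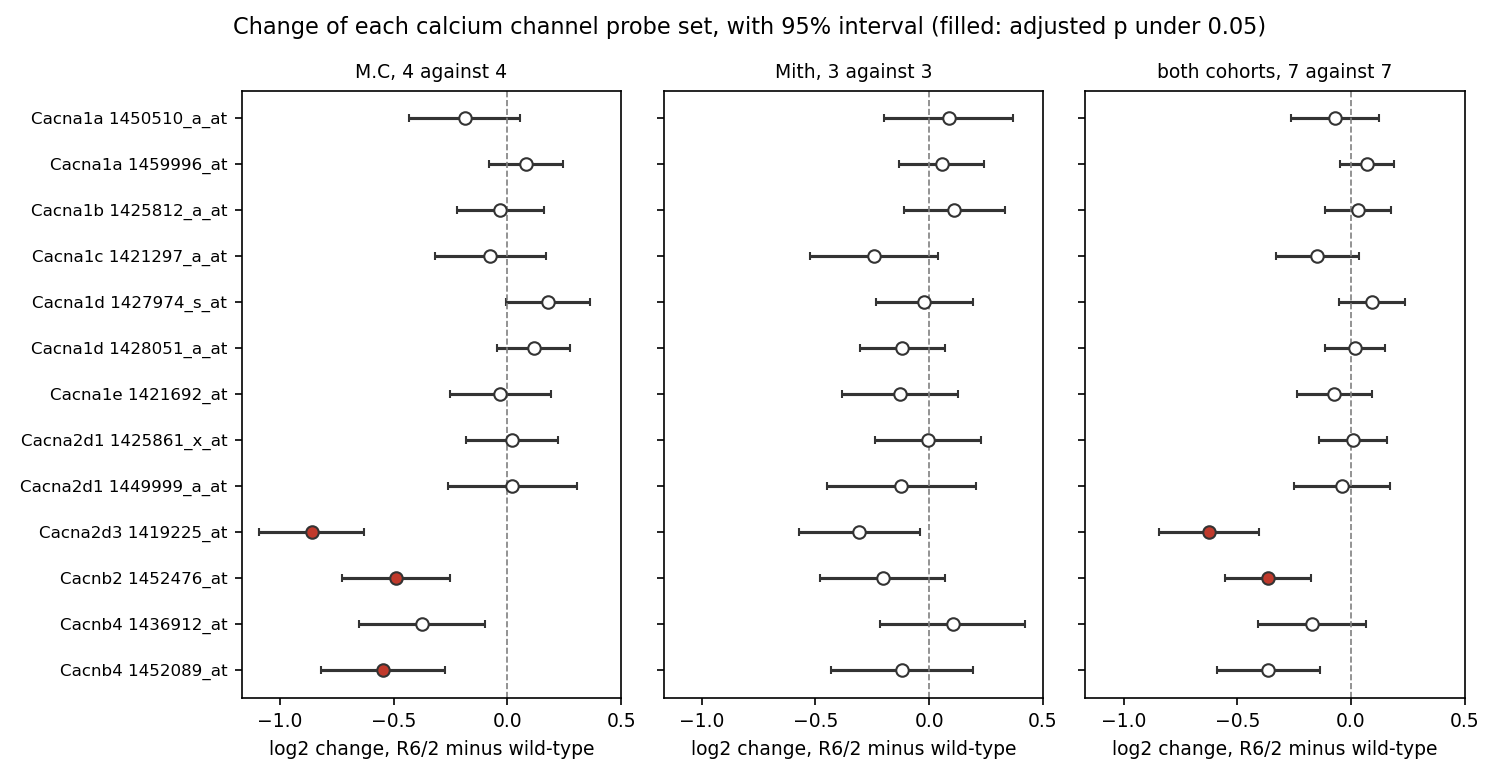
Log2 change, R6/2 minus wild-type, of each of the 13 probe sets with its 95% interval, in M.C, in Mith and over both cohorts; filled points have an adjusted p under 0.05 over all probe sets. Filled points are those of Cacna2d3 and Cacnb2 over both cohorts, and of these and Cacnb4 probe set 1452089_at in M.C, and the 7 pore-forming probe sets at the top have intervals that cross 0 in every panel.

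None of the 7 pore-forming probe sets was called over both cohorts, in M.C or in Mith, and 0 of them had an unadjusted p under 0.05 in these fits. Over both cohorts their changes ran from -0.15 to 0.09 with a median of 0.02. The intervals reached at the lowest 79.5% and at the highest 118% of wild-type. The test therefore leaves room for signal changes of that size over both cohorts, and a missed threshold does not show equal levels. Within Mith the interval of Cacna1c reached down to 69.5%. Of these probe sets only that of Cacna1b averaged above the range of the genes of other organs. For the dimmer ones an interval of signal does not bound the change in RNA.

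Cacna1c and Cacna1d encode the L-type pores of brain. Cacna1c read 6.69, 7.01, 7.07 and 7.06 in the R6/2 arrays of M.C, against 7.04, 7.02, 7.03 and 7.03 in wild-type. In Mith it read 6.93, 6.85 and 6.29 in R6/2, against 6.87, 6.97 and 6.95 in wild-type. R6/2 replicates 1 and 7 were low and the other R6/2 arrays lay near the wild-type range, so that the SD was 0.28 in R6/2 and 0.06 in wild-type (n = 7 each). The change, the lowest of the pore-forming genes, was -0.15 ± 0.09 (adjusted p = 0.461), and without R6/2 replicate 7 it was -0.06.

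Cacna1d, whose channel opens at lower voltages and is clustered in spines of striatal neurons, had 2 probe sets, and on each of them the genotypes were apart in 1 cohort only. Probe set 1427974_s_at read 6.53, 6.69, 6.72 and 6.53 in the R6/2 arrays of M.C, against 6.36, 6.52, 6.50 and 6.37 in wild-type. Every R6/2 array lay above every wild-type array there, which held for 4.84% of all probe sets, and the change in M.C was 0.18 ± 0.09 (adjusted p = 0.313). In Mith its change was -0.02 ± 0.10. Probe set 1428051_a_at read 7.24, 7.20 and 7.23 in the R6/2 arrays of Mith, against 7.35, 7.37 and 7.31 in wild-type, all lower, which held for 6.34% of all probe sets, while 6.61% had all R6/2 arrays of Mith higher. Its change was -0.12 ± 0.09 in Mith (adjusted p = 0.730) and 0.12 ± 0.08 in M.C (adjusted p = 0.475).

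Cacna1a forms the P/Q-type pore of release sites and is mutated in the ataxic tottering mouse. Probe set 1459996_at read 6.68 to 7.27 in R6/2 (median 6.96) and 6.62 to 7.04 in wild-type (median 6.88), a change of 0.07 ± 0.06 (adjusted p = 0.611). Probe set 1450510_a_at was dimmer, at 5.37 to 6.18 in R6/2 (median 5.69) and 5.60 to 6.11 in wild-type (median 5.84), a change of -0.07 ± 0.09 (adjusted p = 0.777). The genotypes overlapped on both probe sets.

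Cacna1b, the N-type pore, read 7.90 to 8.35 in R6/2 (median 8.16) and 7.88 to 8.27 in wild-type (median 8.12), a change of 0.03 ± 0.07 (adjusted p = 0.889). Cacna1e, the R-type pore, read 6.78 to 7.40 in R6/2 (median 7.20) and 7.05 to 7.54 in wild-type (median 7.26), a change of -0.07 ± 0.08 (adjusted p = 0.714). R6/2 and wild-type arrays were interleaved for both genes.

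**Figure D4:**
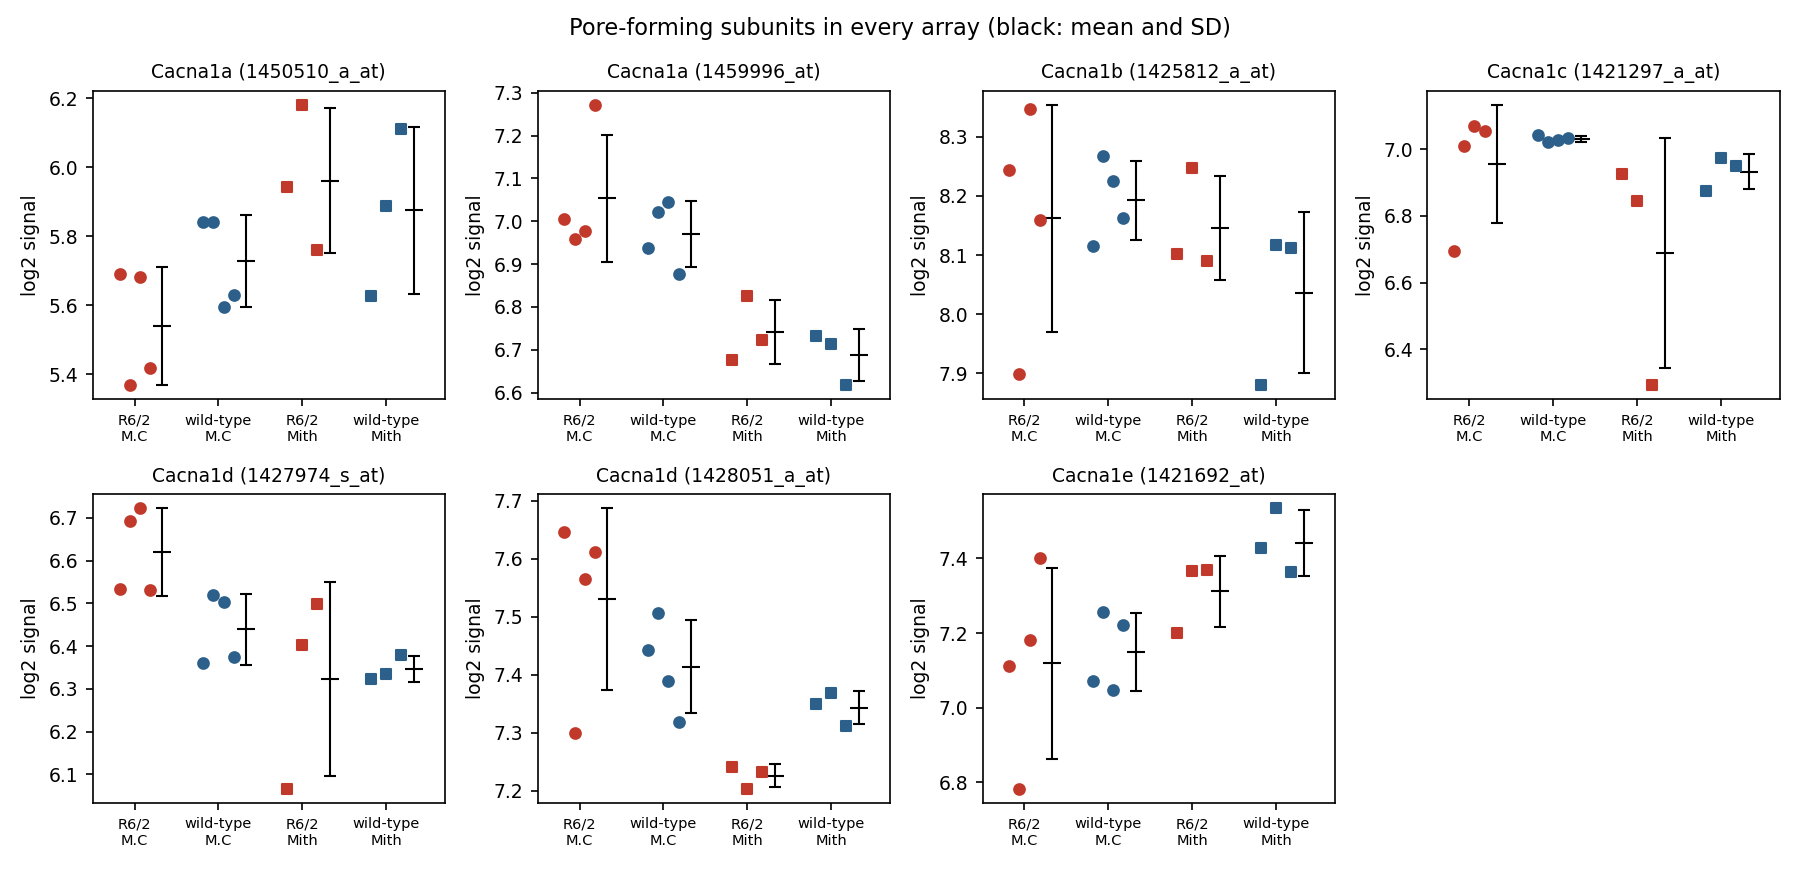
Log2 signal (vertical axis, a separate scale in each panel) of the 7 probe sets of pore-forming genes in every array, grouped by genotype and cohort; black marks give the mean and SD. Genotypes overlap in most panels, R6/2 replicates 1 and 7 are low for Cacna1c, and the Cacna1a probe sets move in opposite directions between the cohorts.

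Several members differed between the cohorts. Between cohorts, M.C minus Mith with genotype as a term, 7 of the 13 probe sets were called, 3 higher and 4 lower in M.C, where 32.3% of all probe sets were called, 15.3% higher and 17% lower. The higher ones were both Cacna1d probe sets (0.20 ± 0.07 and 0.19 ± 0.06) and Cacna1a 1459996_at (0.30 ± 0.06, adjusted p = 9.62e-04). The lower ones were Cacna1a 1450510_a_at (-0.29 ± 0.09, adjusted p = 0.0259), Cacna1e (-0.24 ± 0.08), Cacna2d1 1425861_x_at (-0.25 ± 0.07) and Cacnb4 1436912_at (-0.42 ± 0.11, adjusted p = 0.00969). The Cacna1a probe sets thus differed between cohorts in opposite directions. Cacna2d3 (0.08 ± 0.11) and Cacnb2 (-0.12 ± 0.09) were not called between cohorts. Marker lists differed between the cohorts too. The mean centred signal of 5 thalamic genes averaged -0.36 in M.C and 0.12 in Mith among R6/2 arrays, and -0.29 in M.C and 0.74 in Mith among wild-type arrays. That of 7 oligodendrocyte genes averaged -0.51 in M.C and 0.20 in Mith among R6/2 arrays, and -0.10 in M.C and 0.61 in Mith among wild-type arrays. Their part in the cohort differences was not tested. The cohorts are known from titles alone, so drug study, time and handling cannot be told apart.

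The upstream windows of Cacna2d3 and Cacnb2 are shown because these are the members called over both cohorts. They are the 250 bases before each RefSeq transcript start, GRCm38.p6, 5′ to 3′ on the gene's strand. Capitals mark GC boxes (GGGCGG), the site of Sp1, and CRE half-sites (TGACG), part of the site of CREB, on both strands. Cacna2d3 lies on the minus strand with its window at chr14:29721865-29722114, and Cacnb2 lies on the plus strand with windows at chr2:14604056-14604305 and chr2:14823842-14824091.
Cacna2d3: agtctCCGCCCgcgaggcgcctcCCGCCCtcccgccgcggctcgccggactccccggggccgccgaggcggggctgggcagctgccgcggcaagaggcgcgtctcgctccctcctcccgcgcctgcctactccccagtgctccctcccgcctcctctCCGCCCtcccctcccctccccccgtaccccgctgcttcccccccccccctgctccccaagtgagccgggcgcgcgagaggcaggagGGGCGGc
Cacnb2, first start: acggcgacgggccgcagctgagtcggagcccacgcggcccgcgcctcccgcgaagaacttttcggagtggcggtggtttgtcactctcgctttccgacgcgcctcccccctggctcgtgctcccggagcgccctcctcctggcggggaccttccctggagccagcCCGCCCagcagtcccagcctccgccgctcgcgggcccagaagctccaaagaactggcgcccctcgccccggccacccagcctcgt
Cacnb2, second start: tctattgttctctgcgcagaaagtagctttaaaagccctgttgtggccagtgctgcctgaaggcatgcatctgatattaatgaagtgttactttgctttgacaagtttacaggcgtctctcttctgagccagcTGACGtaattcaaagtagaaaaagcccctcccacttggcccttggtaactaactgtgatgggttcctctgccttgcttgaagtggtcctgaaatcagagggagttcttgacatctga

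The Cacna2d3 window was 80.0% G and C and held 4 GC boxes and 0 CRE half-sites. The first Cacnb2 window was 73.2% G and C and held 1 GC box, and the second was 46.0% G and C and held 1 CRE half-site and 0 GC boxes. GC boxes occurred in 32.7% and CRE half-sites in 17.8% of the 32851 windows of all genes. Egr sites (GCGNGGGCG, both strands) occurred in 4.7% of windows and in none of these 3. GC boxes were also present beside genes that were not called, with 3 before Cacna1b and 6 before Cacna2d1. A match describes letters and not a bound site, and the probe sets do not say which Cacnb2 start was used.

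Other calcium channel subunit genes gave no call. Of 8 listed 6 were measured, 0 passed in either direction in limma, 1 had an unadjusted p under 0.05, and the median change was -0.14. They ran from -0.23 ± 0.08 for Cacna2d2, another alpha2delta subunit (adjusted p = 0.140), to 0.05 for Cacna1f, the L-type pore of retina. Genes named as gamma subunits mostly act as regulators of AMPA receptors. Of the 8 measured 1 fell, 0 rose and 7 did not pass, with a median of -0.03. Cacng4 fell by 0.39 ± 0.08 (adjusted p = 0.0127), where M.C gave -0.40 (adjusted p = 0.0449) and Mith -0.37 (adjusted p = 0.303), and its call was lost with the Actb covariate (-0.30, adjusted p = 0.237). Its call over both cohorts held in all 14 fits with 1 array left out (limma adjusted p from 0.0045 to 0.0368), but not at a threshold of 0.01. Leaving out 1 array ended its M.C call in 8 of 14 fits. That M.C call was also lost with the values as deposited (adjusted p = 0.0729) and after quantile normalization (-0.30, adjusted p = 0.190). Cacng3 was at -0.47 ± 0.13 over both cohorts and did not pass (adjusted p = 0.0724), while it was at -0.79 in M.C, where it was called (adjusted p = 0.00336), and at -0.04 in Mith (adjusted p = 0.975).

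Of 22 regulators and partners of the channels 13 were measured. 1 fell, 0 rose and 12 did not pass, with a median change of -0.09. The gene that fell was Unc13a, a priming factor of synaptic vesicles, at -0.31 ± 0.08 (adjusted p = 0.0424). Leaving out 1 array ended that call in 12 of 14 fits, and it did not hold with the values as deposited (adjusted p = 0.0642) and after quantile normalization (adjusted p = 0.0581). It was also lost with the Actb covariate (adjusted p = 0.327) and without a cohort term (adjusted p = 0.285). Over all 12393 genes, each by its probe set of highest mean, 2.07% were called lower, 0.468% higher, and the median change was 0.01.

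**Figure D5:**
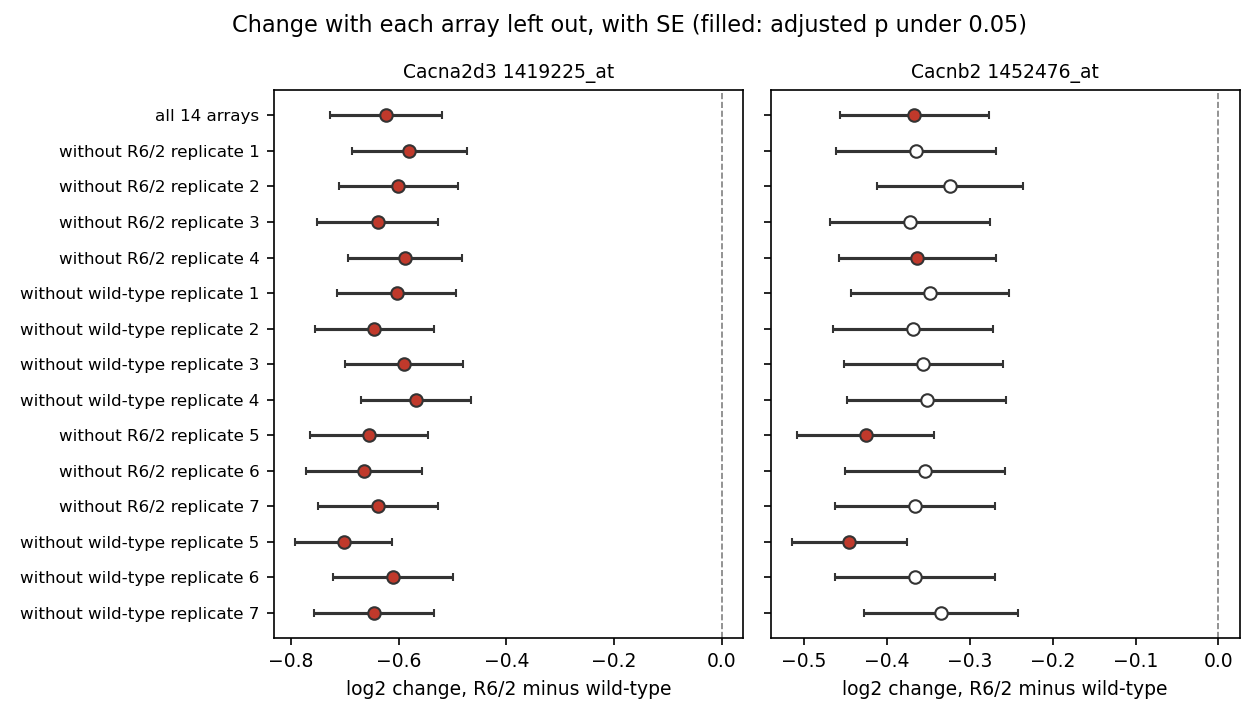
Log2 change, R6/2 minus wild-type over both cohorts, of Cacna2d3 (left) and Cacnb2 (right) with all 14 arrays and with each array left out, with SE; filled points have an adjusted p under 0.05. All 15 points of Cacna2d3 are filled and lie between -0.70 and -0.57, while 11 of the 14 left-out points of Cacnb2 are open.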

How the data were processed

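Expression was measured by array in total RNA of striatum from 7 R6/2 and 7 wild-type samples. The deposited table holds log2 signals of 22690 probe sets, from 2.96 to 14.5. The log2 unit of the deposited values was read from their range, since no source at hand names the summary or normalization method. Fits left out 64 control probe sets. Because array medians spanned 0.108, over a limit of 0.1, arrays were shifted to 1 median. Gene symbols are those of the platform annotation, updated by gene ID with a RefSeq gene table (GRCm38.p6), 20351 of 20380 single-symbol probe sets matching. Where a gene of another list is given by 1 probe set, it is the one of highest mean, passing over those marked _x_at.

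Genotype was tested with limma 3.58.1 in R 4.3.3, with cohort as a term, and within cohorts and for their difference as contrasts of a fit with 4 groups. The moderated test is two-sided, and p-values were adjusted by Benjamini-Hochberg over 22626 probe sets. Intervals are 95% from the same fits. The scripts were tested on simulated data. The Actb and Gapdh differences were tested by exact permutation over 3432 arrangements.

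The members and lists were chosen with earlier results of these data known. Every member probe set is named. Of the other lists, up to 4 called genes are named, and up to 3 genes most like each called member. Named marker genes, Cacna1f, Cacna2d2 and Cacng3 were chosen after their values were seen. Alternatives were the deposited scale, quantile normalization, no cohort term, the Actb difference as a covariate, trended and robust variances, array weights, brighter probe sets, 1 probe set per gene, a threshold of 0.01, each cohort alone and each array left out.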

Additional observations from a re-analysis of the deposited data

Results flagged for a closer look

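Of 52 groups of 4 or 7 arrays tested among the member probe sets, 3 held an array far from the others by Dixon's criterion at the 95% level, so about 5% of groups pass it by chance. For Cacna1a probe set 1459996_at, R6/2 replicate 4 was the highest of the R6/2 arrays of M.C at 7.27, where the nearest array read 7.01. For Cacna1c, R6/2 replicate 1 was the lowest of the R6/2 arrays of M.C at 6.69, where the nearest read 7.01. For Cacna1b, wild-type replicate 5 was the lowest of the 7 wild-type arrays at 7.88, where the nearest read 8.11.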

How the results depend on the processing

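The count of member probe sets called over both cohorts, 2 here, was 0 with the Actb difference as a covariate, 1 at an adjusted p under 0.01, 1 without a cohort term and 1 to 2 with 1 array left out. The count in M.C, 3 here, was 1 with the Actb covariate, 1 at an adjusted p under 0.01 and 1 to 3 with 1 array left out. It was 2 with the M.C arrays fitted alone, and 2 of 9 with 1 probe set per gene. The counts in Mith and for the difference between cohorts were 0 under every alternative run in limma. Calls fell across the array too. Over both cohorts 578 of all 22626 probe sets were called, against 56 with the Actb covariate, 131 at 0.01 and 100 without a cohort term. With 1 array left out it was 280 to 879. In M.C 727 of all probe sets were called, against 362 with the Actb covariate, 251 at 0.01 and 558 with the M.C arrays alone. With 1 probe set per gene 385 of 12393 were called in M.C. With 1 array left out the count of all probe sets called in M.C was 368 to 819. The cause of these losses was not tested. The median change of the members turned sign with the Actb covariate, to 0.052 over both cohorts, 0.087 in M.C and 0.018 in Mith, and to 0.058 in M.C without R6/2 replicate 2. Single changes that turned sign, none of them called, are given next. Over both cohorts these were Cacna2d1 1425861_x_at (-0.014 after quantile normalization, -0.020 with array weights) and, with the Actb covariate, Cacna1a 1450510_a_at (0.041), Cacna1e (0.058) and Cacna2d1 1449999_a_at (0.179). In M.C they were Cacna1b (0.000232 as deposited, 0.029 after quantile normalization, 0.030 with array weights, 0.087 with the Actb covariate), Cacna2d1 1425861_x_at (-0.021 after quantile normalization, -0.029 with array weights) and, with the Actb covariate, Cacna1c (0.018) and Cacna1e (0.115). In Mith, with the Actb covariate, they were Cacna2d1 1425861_x_at (0.158), Cacna2d1 1449999_a_at (0.079) and Cacnb4 1452089_at (0.018). For the difference between cohorts they were Cacna2d1 1425861_x_at (-0.016 after quantile normalization, -0.025 with array weights), Cacna1a 1459996_at (-0.024 with array weights) and Cacng4 (0.075 after quantile normalization). With 1 array left out, sign turned over both cohorts for Cacna1b (-0.0071 to 0.082), Cacna1d 1428051_a_at (-0.013 to 0.048), Cacna2d1 1425861_x_at (-0.045 to 0.038) and Cacna2d1 1449999_a_at (-0.093 to 0.039). In M.C it turned for Cacna1b (-0.092 to 0.058), Cacna1c (-0.112 to 0.013), Cacna1e (-0.124 to 0.081), Cacna2d1 1425861_x_at (-0.078 to 0.071) and Cacna2d1 1449999_a_at (-0.067 to 0.180). In Mith it turned for Cacna1a 1450510_a_at (-0.037 to 0.204), Cacna1d 1427974_s_at (-0.111 to 0.105), Cacna2d1 1425861_x_at (-0.071 to 0.071) and Cacnb4 1436912_at (-0.027 to 0.206). For the difference between cohorts it turned for Cacna1a 1459996_at (-0.044 to 0.070), Cacna1c (-0.029 to 0.288), Cacna2d1 1425861_x_at (-0.072 to 0.089) and Cacng4 (-0.158 to 0.070). No paired analysis was possible because the replicate numbers are not from the labels and only name arrays in order of deposit. Dim probe sets such as Cacna2d1 1425861_x_at limit what can be seen.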
